A study of Rattus norvegicus with 10 samples.

Results

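The 10 genes described here belong to insulin and insulin-like growth factor (IGF) signalling in the fetal rat heart. They are the ligand gene Igf1, the receptor genes Insr and Igf1r, the receptor substrate genes Irs1 and Irs2, and the binding protein genes Igfbp2, Igfbp3, Igfbp4, Igfbp5 and Igfbp7. They were picked by symbol, not by a measured value, out of the 18025 genes listed, and all 10 were found. Heart tissue of wild-type (wt) Sprague-Dawley fetuses was taken at embryonic day 19.5, and their mRNA was sequenced from a stranded library. After mating, the dams of the hyperglycemia (HG) group, 3 months old, were made diabetic by 3 daily intraperitoneal injections of streptozotocin, a toxin of the insulin-producing beta cells, in citrate buffer. The dams of the control (CON) group, of the same age, received the buffer alone on the same schedule. Each group held 5 libraries, CON 1 to 5 and HG 1 to 5. The labels did not say which fetuses shared a dam, so the adjusted p-values below measure the spread between libraries only.

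Insulin and the IGFs act through a pair of related receptor tyrosine kinases, the insulin receptor and the IGF-1 receptor. Activated receptors phosphorylate the substrates IRS1 and IRS2, which pass the signal to PI3K and AKT, while a second arm runs through RAS and ERK. Secreted binding proteins hold IGFs in tissue and in blood and set how much ligand reaches a receptor. In the fetal heart the pathway is known for promoting the growth and division of cardiomyocytes, with IGF2 as the main IGF before birth in rodents.

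The unit throughout is FPKM, the fragments on a gene divided by its length and by the size of its library, so that levels can be set side by side between genes. Reads on genes numbered 17639895 to 18240006 in the CON libraries and 16672876 to 19109844 in the HG libraries. Libraries of the same group correlated at 0.988 to 0.992 on the log scale and libraries of different groups at 0.977 to 0.984. All 10 cardiomyocyte markers were present, the lowest at a mean of 41.4 FPKM. Liver markers summed to 85.5 FPKM in CON 3, with albumin at 34.9 FPKM, and to 1.33 to 9.10 FPKM in the other libraries. Hemoglobin genes took 2.27 to 4.21% of all FPKM in CON and 1.86 to 2.56% in HG. In each group 2 of the 5 libraries carried transcripts of Y chromosome genes.

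After genes averaging under 0.1 FPKM were dropped, the remaining 14542 were compared between the groups with limma on log2(FPKM + 0.1), and a gene was called at a Benjamini-Hochberg adjusted p under 0.05. Fold changes below are on that scale, always HG over CON. All 10 members passed the filter. Among them 5 were called higher in HG (Igf1r, Irs2, Igfbp3, Igfbp4 and Igfbp5), beside 28.4% of all genes tested, and 1 was called lower (Igfbp7), beside 11.8%. The other 4 (Igf1, Insr, Irs1 and Igfbp2) were not called. The median log2 fold change was 0.34 over the members and 0.09 over all genes tested. In 4 members every HG library stood above every CON library, beside 19.3% of the genes tested, and in 1 member every HG library stood below, beside 8.12%. With the libraries scaled by median-of-ratios factors the split of calls was 3 higher and 2 lower among the members, and 2271 higher and 2551 lower among all genes, in place of 4127 and 1709 as deposited.

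The sequences before the start sites are shown for the 4 binding protein genes that differed between the groups, as 250 bases directly upstream of each gene's start, 5′ to 3′ on the gene's own strand. They are RefSeq sequences of the GRCr8 assembly, a later build than the mRatBN7.2 genome to which the reads were mapped. Igfbp3 (chr14:86277945-86278194, minus strand), Igfbp4 (chr10:84491221-84491470, plus strand), Igfbp5 (chr9:81914188-81914437, minus strand) and Igfbp7 (chr14:31091486-31091735, plus strand) are given in that order, with capitals for the motifs searched.
Igfbp3: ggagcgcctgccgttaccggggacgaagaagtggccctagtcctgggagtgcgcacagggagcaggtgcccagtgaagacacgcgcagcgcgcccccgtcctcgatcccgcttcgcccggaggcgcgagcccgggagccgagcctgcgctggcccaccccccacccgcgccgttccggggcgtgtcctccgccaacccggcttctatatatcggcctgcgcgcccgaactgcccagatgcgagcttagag
Igfbp4: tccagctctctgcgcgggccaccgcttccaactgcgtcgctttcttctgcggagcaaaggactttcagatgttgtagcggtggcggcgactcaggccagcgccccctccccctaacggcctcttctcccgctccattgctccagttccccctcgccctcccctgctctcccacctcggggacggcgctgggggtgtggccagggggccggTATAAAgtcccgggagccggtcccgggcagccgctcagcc
Igfbp5: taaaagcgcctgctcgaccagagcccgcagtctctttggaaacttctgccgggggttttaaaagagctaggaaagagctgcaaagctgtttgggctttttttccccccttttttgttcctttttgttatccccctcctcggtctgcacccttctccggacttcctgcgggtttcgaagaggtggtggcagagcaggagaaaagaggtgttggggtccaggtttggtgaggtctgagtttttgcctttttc
Igfbp7: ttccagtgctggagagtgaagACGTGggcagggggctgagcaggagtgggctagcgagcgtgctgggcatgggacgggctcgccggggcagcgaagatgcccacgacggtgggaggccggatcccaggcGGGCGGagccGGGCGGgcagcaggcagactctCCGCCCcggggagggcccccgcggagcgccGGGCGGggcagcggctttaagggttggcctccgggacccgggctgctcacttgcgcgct
Of the 10 members 9 had an entry, with Irs2 the exception.

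Motifs were searched in both strands of those 250 bases and counted in 27457 RefSeq promoter windows of the same length. None of the 5 motifs contains another, and ACGTG within a CACGTG is met on both strands. The GC box core GGGCGG was in 32.4% of all windows and in those of Igf1r, Igfbp2, Igfbp7 and Irs1. The hypoxia response core ACGTG was in 16.9% and in those of Igf1r, Igfbp2 and Igfbp7. The TATA sequence TATAAA was in 13.1% and, among the members, in Igfbp4, where it began 40 bases before the start. The forkhead motif GTAAACA was in 3.25% and in Insr, and the insulin response element core CAAAACA was in 5.46% and in Igf1. The windows of Igfbp3 and Igfbp5 held no exact match to these motifs, and Igfbp7 held 4 GC box cores and 1 ACGTG. Only exact letters were counted, so the tatatat in the Igfbp3 window was not a match to TATAAA. With no match in the Igfbp5 window, the search could not find a motif shared by Igfbp4 and Igfbp5.

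**Figure D1:**
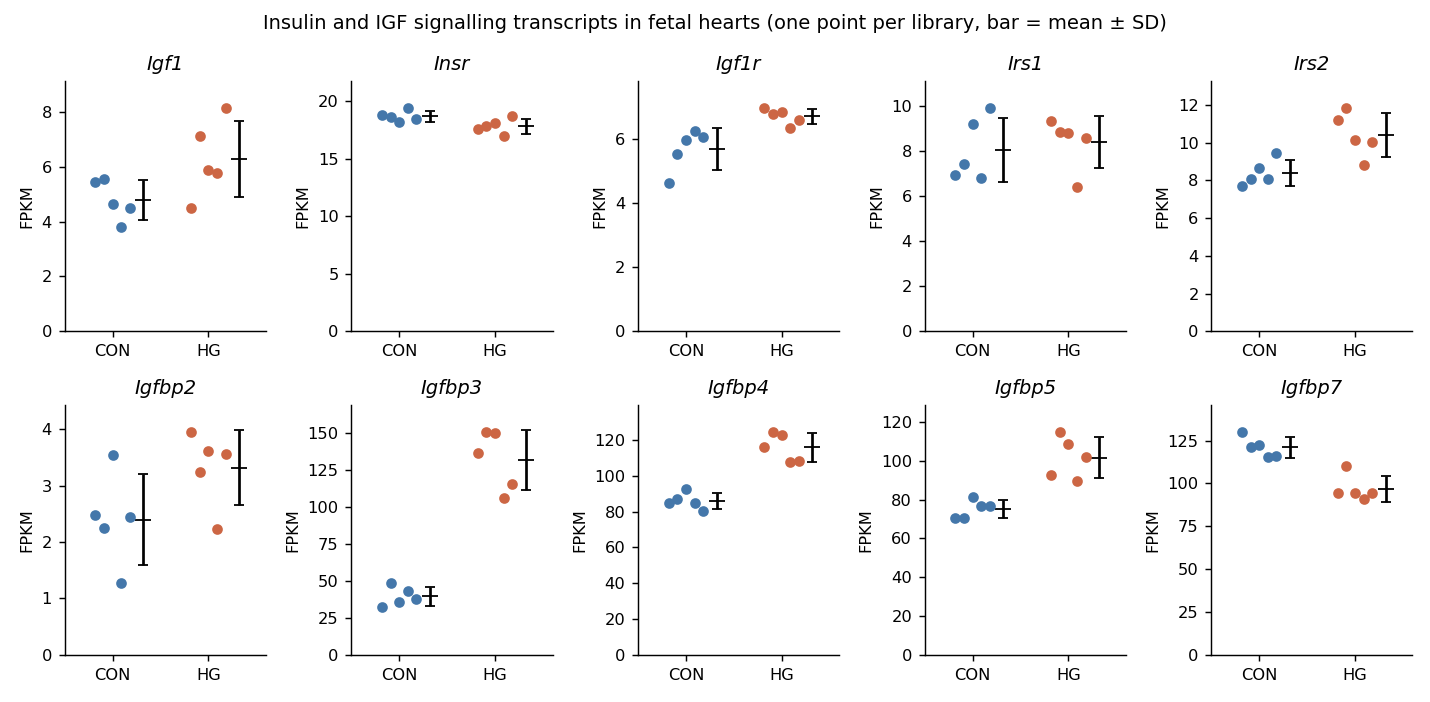
FPKM (vertical axes, from 0, a scale for each gene) of the 10 members in the 5 CON and the 5 HG libraries, a point for each library, with the mean and SD as a bar at the right. The HG points stand clear above the CON points for Igf1r, Igfbp3, Igfbp4 and Igfbp5 and clear below for Igfbp7, and the points overlap for the other 5 genes.

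The ligand Igf1, a growth factor made in many tissues under growth hormone and insulin, had a higher mean in HG but was not called. Its CON libraries stood at 5.43, 5.55, 4.66, 3.80 and 4.50 FPKM, and its HG libraries at 4.50, 7.14, 5.89, 5.77 and 8.15 FPKM. HG 1 lay among the CON libraries, and the other 4 HG libraries lay above all of CON. The means were 4.79 ± 0.719 FPKM (SD, n = 5) in CON and 6.29 ± 1.40 FPKM in HG, and the log2 fold change was 0.37 (SE 0.147, adjusted p = 0.0625). Without HG 1 it was 0.48 (adjusted p = 0.0135), and without CON 2 the adjusted p was 0.0486. With voom on the recovered reads the adjusted p was 0.0393, and with Y chromosome genes as a covariate 0.0464. In the other 17 of 21 alternative analyses Igf1 was not called. Among those were median-of-ratios factors (log2 fold change 0.28, adjusted p = 0.155) and quantile normalization (0.27, adjusted p = 0.170). In bulk tissue, fewer cells of a type and less RNA per cell cannot be told apart, here and for every gene below.

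Igf1 was a minor IGF transcript next to Igf2, the fetal IGF. Igf2 stood at 312.4, 358.9, 381.1, 374.9 and 281.2 FPKM in CON, compared with 416.9, 467.2, 440.0, 400.3 and 483.3 FPKM in HG, with no overlap, and was called higher (log2 fold change 0.38, adjusted p = 0.00370). The ratio of Igf2 to Igf1 was 73.0 on average in CON (57.5 to 98.6) and 72.3 in HG (59.3 to 92.7), so that the ranges overlapped. The insulin gene Ins2 had 116 to 293 reads a library, with a CON mean of 0.267 ± 0.0760 FPKM and an HG mean of 0.287 ± 0.130 FPKM (log2 fold change 0.03, SE 0.249, adjusted p = 0.927). The gene length behind the Ins2 values was 39946 bases, against 7103 for Igf2, so the Ins2 model covered far more than the short insulin mRNA and its reads need not come from that mRNA.

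Of the signalling receptors Igf1r was called higher and Insr was not called. Insr, which encodes the insulin receptor, stood at 18.8, 18.6, 18.1, 19.4 and 18.4 FPKM in CON, compared with 17.5, 17.8, 18.1, 16.9 and 18.7 FPKM in HG. The groups overlapped and no library stood far from the others, with an SD of 2.58% of the mean in CON and 3.60% in HG, the former the smallest of the 10 members. The means were 18.7 ± 0.481 and 17.8 ± 0.642 FPKM, the log2 fold change was -0.07 (95% confidence interval -0.15 to 0.02), and Insr was not called (adjusted p = 0.187). Under median-of-ratios factors the log2 fold change of Insr was -0.16 and passed the test (adjusted p = 0.00497), and under quantile normalization it was -0.15 (adjusted p = 0.00876).

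Igf1r, the gene of the receptor that mediates most growth signals of IGF1 and IGF2, was higher in HG. Its values were 4.62, 5.52, 5.97, 6.25 and 6.06 FPKM in CON and 6.96, 6.75, 6.82, 6.34 and 6.57 FPKM in HG. Every HG library lay above every CON library, though HG 4 cleared CON 4 by little, and CON 1 lay well under the rest. The means rose from 5.68 ± 0.651 to 6.69 ± 0.237 FPKM, a log2 fold change of 0.24 (SE 0.0781, adjusted p = 0.0284). The call was lost under median-of-ratios factors (log2 fold change 0.15, adjusted p = 0.159) and quantile normalization (adjusted p = 0.160). It was also lost without CON 2 (adjusted p = 0.0546), HG 1 (0.0606), HG 2 (0.0515) or HG 3 (0.0582).

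A ratio taken within a library is not changed by a factor applied to all its genes, such as a median-of-ratios factor. Quantile normalization can change it. The ratio of Igf1r to Insr was 0.246, 0.297, 0.329, 0.322 and 0.330 in CON and 0.397, 0.379, 0.378, 0.375 and 0.352 in HG. All HG ratios lay above all CON ratios, with means of 0.305 ± 0.0356 and 0.376 ± 0.0160, and in every library Insr remained the more abundant transcript per length. The difference of the means, 0.0714, ran from 0.0566 to 0.0776 with each library left out in turn. Far above both in level was Igf2r, whose product takes IGF2 to the lysosome and does not signal as a kinase: it rose from 231.5 ± 13.4 to 323.5 ± 9.41 FPKM (adjusted p = 7.57e-06, log2 fold change 0.48). The insulin receptor-related gene Insrr was under the filter, with at most 2 reads in a library.

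Of the receptor substrates, Irs2 was called higher and Irs1 was not called. Irs2, the substrate best known from liver and beta cells, stood at 7.71, 8.10, 8.63, 8.08 and 9.47 FPKM in CON against 11.2, 11.9, 10.1, 8.81 and 10.05 FPKM in HG. HG 4 fell below CON 5, the highest CON library, and the other 4 HG libraries lay above all of CON. The means were 8.40 ± 0.684 and 10.4 ± 1.17 FPKM, and the log2 fold change was 0.30 (SE 0.0810, adjusted p = 0.0104). Under median-of-ratios factors the log2 fold change of Irs2 was 0.21 and it was not called (adjusted p = 0.0591), nor was it under quantile normalization (adjusted p = 0.0573).

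Irs1, the substrate that carries much of the insulin and IGF signal in muscle, was more scattered. It stood at 6.92, 7.44, 9.20, 6.78 and 9.92 FPKM in CON against 9.35, 8.87, 8.82, 6.40 and 8.59 FPKM in HG. The lowest value was in HG 4 and the highest in CON 5, so the groups overlapped over most of their range. The log2 fold change was 0.07 (95% confidence interval -0.20 to 0.34, adjusted p = 0.705), and it was -0.02 under median-of-ratios factors and under quantile normalization. The ratio of Irs1 to Irs2 was 0.954 ± 0.0985 in CON (0.839 to 1.07) and 0.807 ± 0.0652 in HG (0.726 to 0.870), so that the ranges overlapped, and the difference stayed between -0.176 and -0.119 with each library left out.

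**Figure D2:**
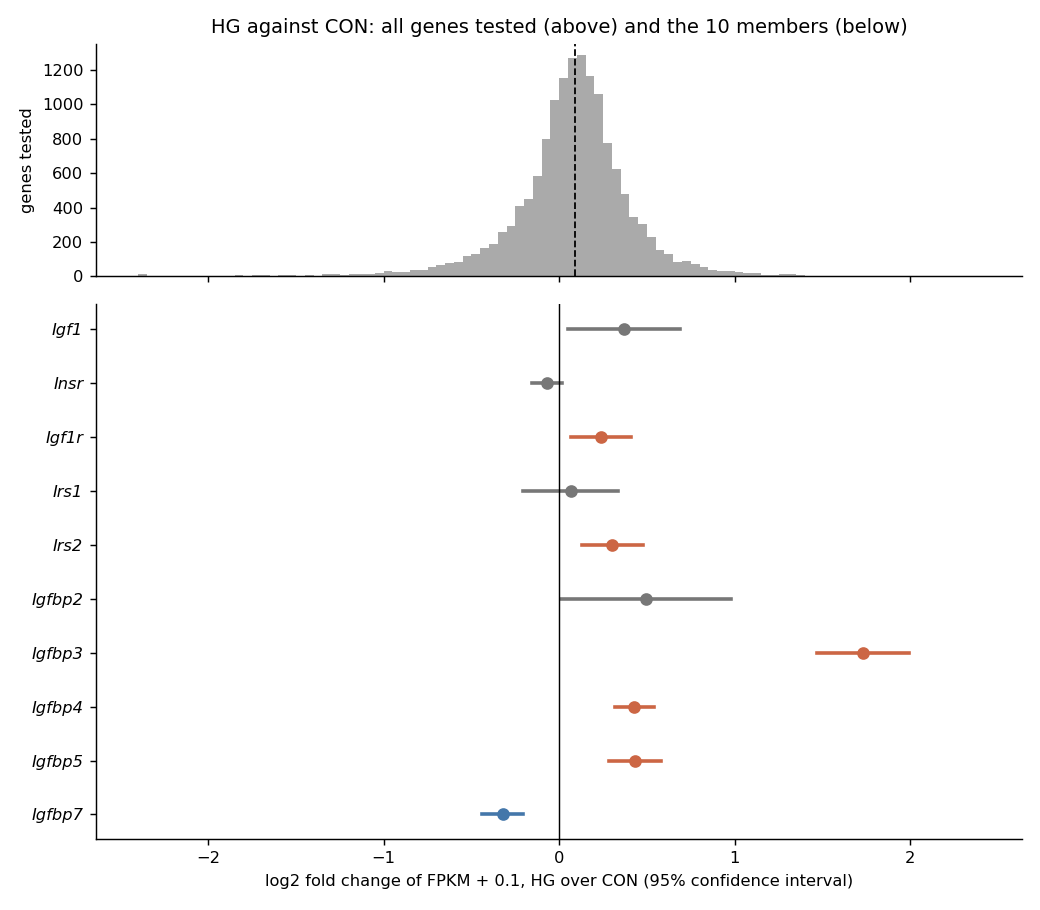
Log2 fold change of FPKM + 0.1, HG over CON, on a shared horizontal axis. Above, the number of genes tested in each interval, values beyond 2.4 in either direction placed in the end intervals, with the median of 0.09 dashed. Below, the 10 members as points with 95% confidence intervals, orange where called higher, blue where called lower and grey where not called. Igfbp3 stands alone near 1.73 and the other members lie between -0.32 and 0.50.

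The binding proteins held the most abundant of the 10 transcripts and the largest difference. Igfbp7, Igfbp4, Igfbp5 and Igfbp3 each exceeded at least 94.2% of the genes tested in mean FPKM, while Insr exceeded 73.3% and Igf1r 46.3%. Of the 5 binding proteins 3 were called higher, 1 was called lower and 1 was not called. Of all genes tested 28.4% were called higher and 11.8% lower.

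Igfbp3 encodes the main IGF carrier of serum, which forms a complex with IGF and the acid-labile subunit. It stood at 32.2, 48.7, 35.6, 43.4 and 37.8 FPKM in CON, compared with 135.9, 150.7, 149.6, 106.1 and 115.2 FPKM in HG. The lowest HG library was more than double the highest CON library. The means rose from 39.5 ± 6.52 to 131.5 ± 20.2 FPKM, and the fold was 3.32 (95% confidence interval 2.77 to 3.98, adjusted p = 1.42e-06). Igfbp3 was the one member with a log2 fold change above 1 (1.73), beside 0.866% of the genes tested that were called with such a change, and 17 tested genes had a larger log2 fold change. Its reads ran from 1411 to 6695 in a library, so that counting error, at 1.73% of the value for the median library, was small next to the spread. The acid-labile subunit gene Igfals was under the filter at 0 to 9 reads in a library.

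Igfbp4 and Igfbp5 rose by like amounts. Igfbp4, whose product mostly restrains IGF action until it is cleaved, stood at 85.1, 86.9, 92.8, 84.9 and 80.4 FPKM in CON, compared with 116.1, 124.7, 122.8, 107.5 and 108.3 FPKM in HG. The groups did not overlap, and the means rose from 86.0 ± 4.50 to 115.9 ± 7.97 FPKM (log2 fold change 0.43, SE 0.0515, adjusted p = 6.45e-05). Igfbp5, whose product binds extracellular matrix, stood at 70.5, 70.6, 81.3, 76.6 and 76.6 FPKM in CON, compared with 92.7, 115.0, 108.5, 89.6 and 101.7 FPKM in HG. Again every HG library lay above every CON library, with means of 75.1 ± 4.60 and 101.5 ± 10.6 FPKM (log2 fold change 0.43, SE 0.0679, adjusted p = 0.000411). The ratio of Igfbp4 to Igfbp5 averaged 1.15 in both groups, from 1.05 to 1.23 in CON and from 1.07 to 1.25 in HG.

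Igfbp7, whose product binds IGFs only weakly and is found at vessel walls, moved the other way. It stood at 130.3, 121.2, 122.3, 115.5 and 116.2 FPKM in CON, compared with 94.5, 110.3, 94.7, 91.2 and 94.2 FPKM in HG. All HG libraries lay below all CON libraries, although HG 2 lay nearer to the lowest CON library than to the next HG library. The means went from 121.1 ± 5.95 to 97.0 ± 7.57 FPKM, and the log2 fold change was -0.32 (SE 0.0528, adjusted p = 0.000524). Igfbp7 was thus the most abundant of the 5 binding protein transcripts in each CON library, and it stood below Igfbp3 in each HG library.

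Igfbp2, a binding protein common in fetal tissue and serum, was the scarcest member and was not called. It stood at 2.47, 2.24, 3.54, 1.27 and 2.44 FPKM in CON, compared with 3.96, 3.23, 3.60, 2.23 and 3.56 FPKM in HG. CON 3 lay among the HG libraries and HG 4 among the CON libraries. The log2 fold change was 0.50 (95% confidence interval 0.01 to 0.98, adjusted p = 0.0959) on 30 to 98 reads a library, for which counting error alone is 12.2% at the median. CON 3 was also the library with 85.5 FPKM of liver markers, and liver is a known source of IGFBP2, but whether the 2 are linked was not tested. Without CON 3 the log2 fold change of Igfbp2 was 0.65 and passed the test (adjusted p = 0.0290), as it did without HG 4 (adjusted p = 0.0395), whereas without CON 4 it was 0.30 (adjusted p = 0.196).

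**Figure D3:**
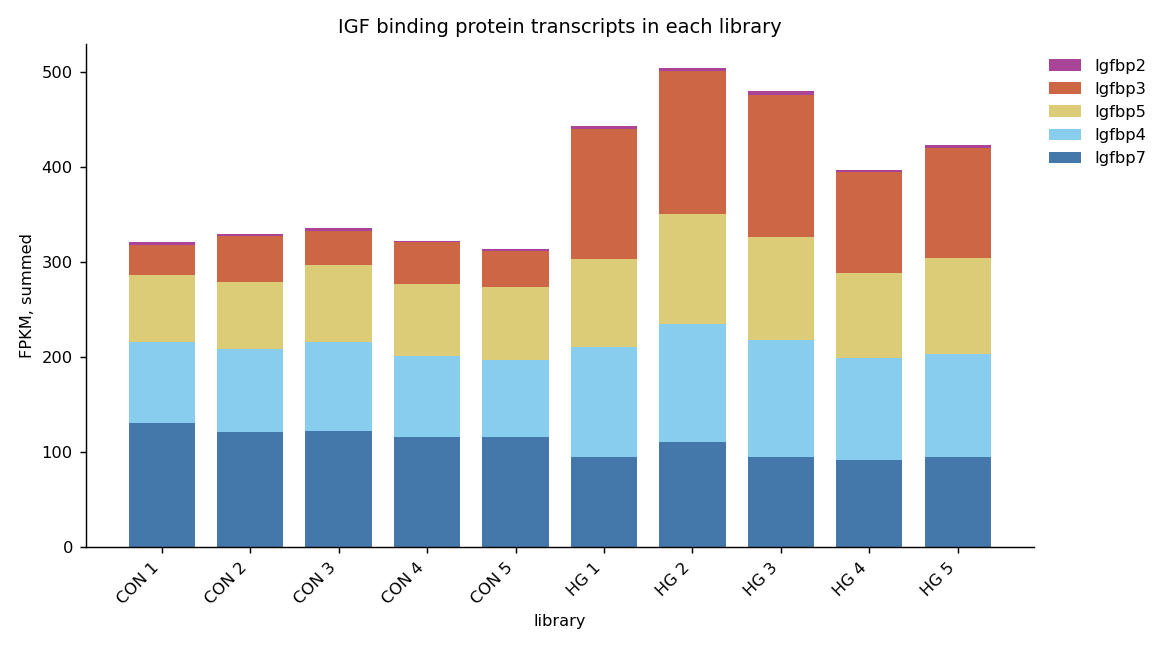
FPKM of Igfbp7, Igfbp4, Igfbp5, Igfbp3 and Igfbp2, stacked from 0, in each of the 10 libraries. The stacks reach 313.3 to 335.6 FPKM in CON and 396.5 to 503.9 FPKM in HG, and the orange Igfbp3 block is taller in every HG library while the dark blue Igfbp7 block at the base is shorter.

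The make-up of the binding protein transcripts differed between the groups. Summed over the 5 genes, 324.2 ± 8.62 FPKM in CON compared with 449.2 ± 43.0 FPKM in HG, with no overlap. Igfbp3 made up 12.2 ± 1.96% of the sum in CON (10.1 to 14.8%) and 29.2 ± 2.03% in HG (26.8 to 31.2%). Igfbp7 made up 37.4 ± 1.88% in CON and 21.6 ± 1.22% in HG, also with no overlap. The shares of Igfbp4 (26.5 and 25.9%), Igfbp5 (23.2 and 22.6%) and Igfbp2 (0.737 and 0.738%) overlapped between the groups. Without Igfbp3 the other 4 summed to 284.6 ± 9.81 FPKM in CON and 317.7 ± 24.2 FPKM in HG, and the ranges overlapped. The ratio of Igfbp3 to Igfbp7 was 0.247 to 0.402 in CON and 1.16 to 1.58 in HG.

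Set against the sum of all 5 binding proteins, neither ligand separated the groups. That sum counts Igfbp7, lower in HG and a weak IGF binder, on the same footing as the others. Ratios to a sum without Igfbp7 were not computed. The ratio of Igf1 to the summed binding proteins was 0.0148 ± 0.00216 in CON and 0.0141 ± 0.00339 in HG, and that of Igf2 was 1.05 ± 0.113 and 0.988 ± 0.0938. Both ranges overlapped, with Igf2 transcripts about as abundant as all 5 binding proteins together.

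Some binding protein genes are neighbours on rat chromosomes in the RefSeq annotation of GRCr8, Igfbp2 beside Igfbp5 on chromosome 9 and Igfbp3 beside Igfbp1 on chromosome 14. Igfbp1, a liver and decidual binding protein that insulin represses, had 0 to 7 reads in a library, and its means of 0.148 ± 0.101 and 0.0973 ± 0.0210 FPKM did not pass the test (log2 fold change -0.21, adjusted p = 0.636). The neighbour of the member that rose most was hardly present in either group. Igfbp6, which prefers IGF2, stood at 1.91 ± 0.462 and 1.75 ± 0.229 FPKM and was not called (log2 fold change -0.09, adjusted p = 0.682). The related gene Igfbpl1 was called higher (log2 fold change 0.69, adjusted p = 0.0368) on 5 to 23 reads a library, and was not called under median-of-ratios factors (adjusted p = 0.0623), under quantile normalization (adjusted p = 0.0572), with voom on the recovered reads (adjusted p = 0.0730), with the replicate block (adjusted p = 0.0912), or when any 1 of CON 1, CON 3, CON 5, HG 1, HG 3 and HG 5 was left out (adjusted p from 0.0509 to 0.0920).

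Markers of heart cell types were counted by the same rule, beside the 28.4% of all genes tested that were called higher and the 11.8% called lower. The 10 smooth muscle and pericyte markers summed to 834.2 to 951.4 FPKM in CON and 1035 to 1296 FPKM in HG, with 3 called higher and 3 lower, and the 10 epicardial markers to 35.3 to 42.4 and 43.0 to 49.9 FPKM, with 3 higher and 1 lower. Of the 10 fibroblast markers 2 were called higher and 5 lower (1762 to 2053 and 1586 to 1821 FPKM), and of the 10 cardiomyocyte markers 1 was called higher and 9 lower (11910 to 12750 and 10500 to 12160 FPKM). Of the 10 endothelial markers 3 were called higher and 0 lower (311.4 to 339.0 and 320.4 to 352.8 FPKM), a split that was 1 and 2 under median-of-ratios factors, and of the 10 macrophage markers 3 and 1 (39.4 to 51.3 and 48.3 to 60.5 FPKM). Red cell markers (11) had 2 called higher and 8 lower, (10560 to 19960 and 8328 to 11670 FPKM), and liver markers (8) had 0 higher and 5 lower, with 3.15 to 85.5 FPKM in CON and 1.33 to 2.71 FPKM in HG. No marker on these lists was at 0 in all libraries. Their part in the differences of Igfbp3, Igfbp4, Igfbp5, Igfbp7, Igf1r and Irs2 was not tested.

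Beyond the members, 8 lists of pathway genes were read, 122 genes in all, of which 115 passed the filter. Among these 35 were called higher in HG and 19 lower, beside 28.4% and 11.8% of all genes tested, and 61 were not called, with a median log2 fold change of 0.07. Under median-of-ratios factors the split was 19 higher and 28 lower, and under quantile normalization 25 and 23, so the balance of directions depended on the scaling. Over all genes tested the splits under these scalings were 2271 and 2551, and 2615 and 2317, in place of 4127 and 1709.

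**Figure D4:**
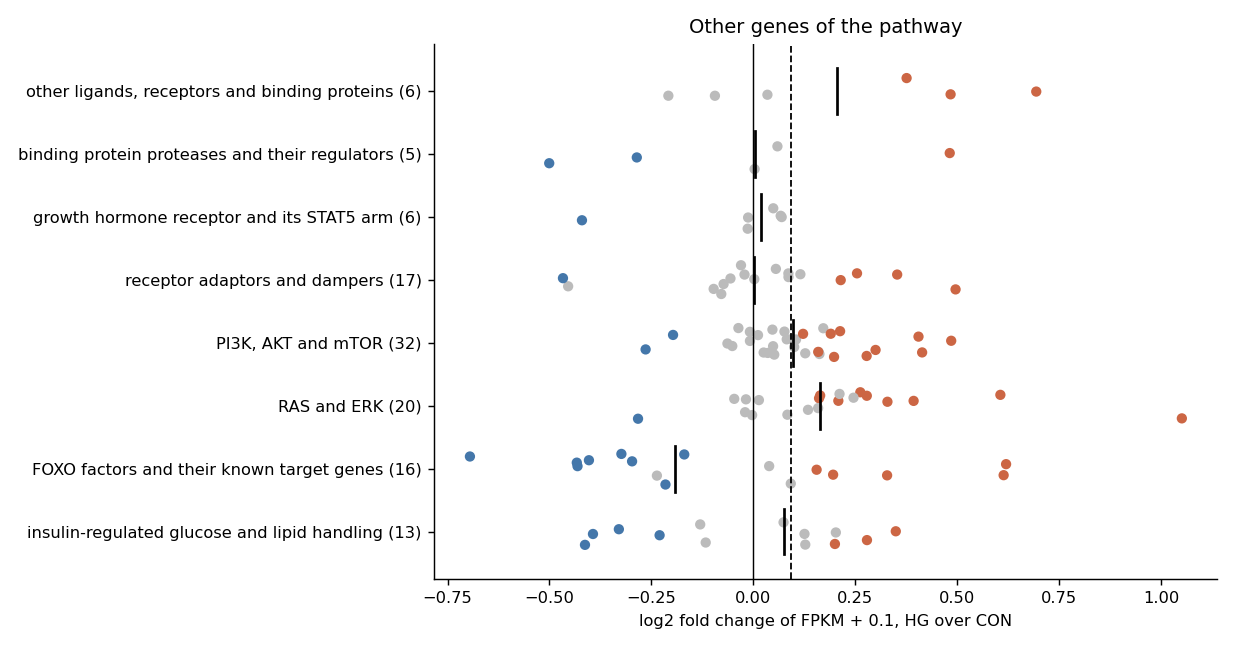
Log2 fold change of FPKM + 0.1, HG over CON, of the tested genes of 8 pathway lists, a point for each gene, with the number of genes in brackets and vertical jitter that carries no meaning. Orange points were called higher, blue points lower and grey points not called, short black bars are list medians, and the dashed line is the median of all genes tested, 0.09. The list medians lie between -0.19 for the FOXO factors and their known targets and 0.21 for the other ligands, receptors and binding proteins.

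Close to the binding proteins, Stc2, whose product inhibits the pappalysin proteases that cleave IGFBP4 and IGFBP5, was called higher (5.54 ± 0.577 to 7.84 ± 1.44 FPKM, adjusted p = 0.00567, log2 fold change 0.48). Ctsd, a lysosomal protease, was lower (98.8 to 81.0 FPKM, adjusted p = 0.000683, log2 fold change -0.29), as was the secreted protease Htra1 (7.71 to 5.32 FPKM, adjusted p = 0.0273, log2 fold change -0.50). Htra1 was not called when any 1 of CON 1, CON 2, CON 3, HG 4 and HG 5 was left out (adjusted p from 0.0508 to 0.0674). These were the 3 called genes of 5 tested on the list of proteases and their regulators. Beside them, 28.4% of all genes tested were called higher and 11.8% lower. Of the 6 genes of the growth hormone receptor and its STAT5 arm, which controls Igf1 in liver, Cish alone was called (4.73 to 3.53 FPKM, adjusted p = 0.0289, log2 fold change -0.42), and it was not called when any 1 of CON 1, CON 3, CON 5, HG 1, HG 3 and HG 5 was left out (adjusted p from 0.0511 to 0.0705) or with the replicate block (adjusted p = 0.0713).

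Among 17 tested adaptors and dampers of the receptors 4 were called higher and 1 lower, beside 28.4% and 11.8% of all genes tested. The list median was 0.00. Grb10, an imprinted adaptor that restrains both receptors, rose from 223.2 ± 4.67 to 266.3 ± 5.89 FPKM (adjusted p = 5.85e-05, log2 fold change 0.25). Dok1, a docking protein, rose from 2.03 to 2.89 FPKM (adjusted p = 0.00910, log2 fold change 0.50). Cav1, the caveolin that binds the insulin receptor at the membrane, fell from 114.5 ± 10.6 to 82.7 ± 6.38 FPKM (adjusted p = 0.000203, log2 fold change -0.47). Under median-of-ratios factors these 3 calls held, and the list had 2 higher and 6 lower, against 2 and 3 under quantile normalization.

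In the PI3K, AKT and mTOR list 10 of 32 genes were called higher and 2 lower, with a median of 0.10. Among all genes tested 28.4% were called higher and 11.8% lower, with a median of 0.09. Akt2, the form most tied to insulin-driven glucose uptake, fell from 28.02 ± 1.39 to 24.4 ± 0.669 FPKM (adjusted p = 0.00262, log2 fold change -0.20). The PI3K regulatory subunits differed in direction, with Pik3r3 higher (11.7 to 14.4 FPKM, adjusted p = 0.00103, log2 fold change 0.30) and Pik3r1 lower (5.97 to 4.96 FPKM, adjusted p = 0.0152, log2 fold change -0.26). These 3 genes kept their calls under both other scalings. The list as a whole had 5 higher and 3 lower under median-of-ratios factors and 8 and 2 under quantile normalization.

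In the RAS and ERK list 9 of 20 genes were called higher and 1 lower, beside 28.4% and 11.8% of all genes tested. The list median was 0.16. Etv4 and Etv5, transcription factors known as readouts of ERK activity, rose from 6.36 ± 0.586 to 13.3 ± 1.31 FPKM (adjusted p = 2.37e-06, log2 fold change 1.05) and from 5.13 ± 0.288 to 7.91 ± 1.01 FPKM (adjusted p = 0.000177, log2 fold change 0.61). Etv4 was the one gene of the 8 lists with a log2 fold change above 1. Hras fell from 30.3 to 24.9 FPKM (adjusted p = 0.000141, log2 fold change -0.28). Spry1, Spry4, Spred1 and Spred2 of the same list were not called, while Dusp6 and Spry2 were called higher. These genes were named after their values were seen. ERK activity itself was not measured in these libraries. Under both other scalings 5 genes of this list were called higher. Calls over all genes tested also fell, from 4127 higher to 2271 under median-of-ratios factors and 2615 under quantile normalization.

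The FOXO factors, which AKT keeps out of the nucleus, and their known target genes had 5 of 16 called higher and 8 lower. The list median was -0.19. All genes tested had 28.4% called higher and 11.8% lower. Ccng2 (9.13 to 14.2 FPKM, adjusted p = 0.000105, log2 fold change 0.62) and Pdk4, the kinase that shuts pyruvate dehydrogenase (9.20 to 14.1 FPKM, adjusted p = 0.000166, log2 fold change 0.61), were higher. Sod2, the mitochondrial superoxide dismutase (78.2 to 59.2 FPKM, adjusted p = 2.44e-05, log2 fold change -0.40), and Trim63, a muscle ubiquitin ligase (83.9 to 67.0 FPKM, adjusted p = 0.000153, log2 fold change -0.32), were lower. The 8 lower genes included the factors Foxo3 and Foxo4, named after their values were seen, and 6 targets, so the targets did not share a direction. The list had 3 higher and 8 lower under median-of-ratios factors and 5 and 8 under quantile normalization. Irs2, Insr and Igfbp1 are also known FOXO targets, and of them Irs2 was called, with the libraries scaled as deposited.

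Of 13 genes of insulin-regulated glucose and lipid handling 3 were called higher and 4 lower, beside 28.4% and 11.8% of all genes tested. The list median was 0.07. The split was 1 higher and 6 lower under median-of-ratios factors, with a median of -0.02, and 2 and 6 under quantile normalization. The fatty acid synthesis genes Fasn (22.6 to 28.8 FPKM, adjusted p = 0.000281, log2 fold change 0.35) and Acaca (9.41 to 10.8 FPKM, adjusted p = 0.0216, log2 fold change 0.20) were higher, the latter not under median-of-ratios factors (adjusted p = 0.219) or quantile normalization (adjusted p = 0.199), nor without CON 1, CON 3 or HG 1 (adjusted p from 0.0512 to 0.0540). Gys1, muscle glycogen synthase, was lower (86.2 ± 1.58 to 68.7 ± 4.42 FPKM, adjusted p = 0.000120, log2 fold change -0.33). So was Slc2a4, which encodes the insulin-responsive transporter GLUT4 (19.1 ± 1.29 to 14.3 ± 1.20 FPKM, adjusted p = 0.000372, log2 fold change -0.41).

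**Figure D5:**
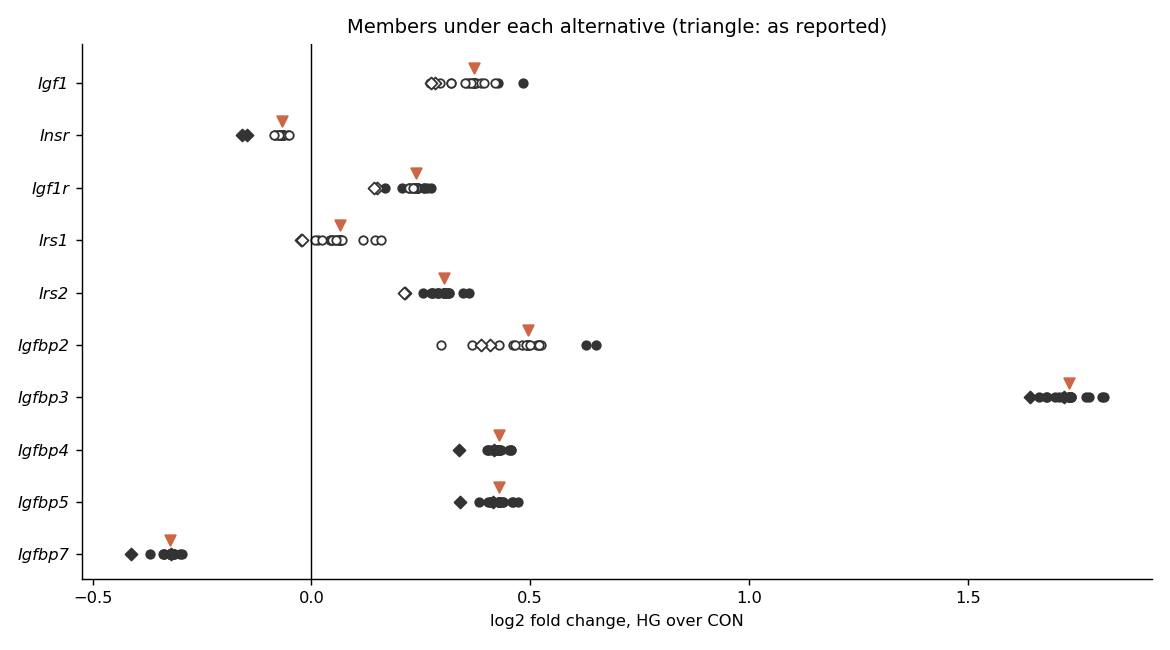
Log2 fold change, HG over CON, of each member under 21 alternative analyses, filled where the adjusted p was under 0.05 and open where it was not, with diamonds for the pair of other scalings and a triangle for the value reported. Igfbp3, Igfbp4, Igfbp5 and Igfbp7 are filled throughout, and Igfbp3 ranges from 1.64 to 1.81, while the points of Igf1, Insr, Igf1r, Irs2 and Igfbp2 are of both kinds.

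Across 21 alternative analyses of each member, Igfbp3, Igfbp4, Igfbp5 and Igfbp7 kept their direction and their call in all. Their log2 fold changes ranged from 1.64 to 1.81, from 0.34 to 0.46, from 0.34 to 0.47 and from -0.41 to -0.30. Irs2 kept its call in 19 of the 21 and Igf1r in 14. Insr was called in 2 of the 21, Igf1 in 4 and Igfbp2 in 3, and Irs1 in none, its log2 fold change ranging from -0.02 to 0.16 and its adjusted p from 0.272 to 0.964.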

How the data were processed

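Fetal heart mRNA (TruSeq Stranded mRNA) was sequenced in 10 libraries. Per the labels, the authors used fastp, HISAT2, HTSeq and R 3.2.0 with the build mRatBN7.2, and they deposited FPKM, read numbers divided by gene length and library size. The strand setting of the counting is not given in the sources used here. All FPKM columns were mapped to samples by library name. Raw reads were not analysed here.

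Whole reads were recovered, since FPKM values of a gene are multiples of what 1 read is worth (within 0.02 reads, for 100% of genes), which gave the depth. A gene with reads in 1 library only always meets that rule. In simulated reads with the recovered gene lengths, 99.7% of genes were recovered exactly. After genes averaging under 0.1 FPKM were dropped, limma 3.58.1 compared log2(FPKM + 0.1) between the groups (moderated test, expression trend, group as the only term, Benjamini-Hochberg over all genes tested) in R 4.3.3. The procedure was tested on simulated data. Ratios and shares were computed within a library and given no test. The members, the gene lists and the tests were chosen with earlier results of these data known. Genes named were the members, the list of other ligands, receptors and binding proteins, and up to 2 called genes in each direction with the smallest adjusted p from each other list, of which 1 gene is not reported here. The alternatives tried were quantile normalization, median-of-ratios factors, a pseudocount of 0.01 or 1, no filter or one at 1 FPKM, hemoglobin genes removed, a replicate block, no trend, Y chromosome genes as a covariate, voom on recovered reads, each library left out, and a fold above 2 as well. Figures were drawn with matplotlib 3.10.9, and values handled in Python 3.11.15 with pandas 2.3.3 and numpy 2.4.6.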

Additional observations from a re-analysis of the deposited data

Results flagged for a closer look

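In groups of 5 libraries, the distance of the highest or lowest library from its nearest neighbour was compared with the range of the group, over 48 sets of values from the members, their shares and their ratios. Chance sets apart about 1 in 20 such groups, and 3 of the 48 were set apart. Irs1 was low in HG 4, at 6.398 FPKM against 8.59 to 9.35 FPKM in the other HG libraries, and the log2 fold change without HG 4 was 0.16 (adjusted p = 0.272, limma). Igfbp7 was high in HG 2, at 110.3 FPKM against 91.2 to 94.7 FPKM, and without HG 2 it was called at an adjusted p of 6.93e-05. The share of Igfbp7 among the binding proteins was high in CON 1, at 40.7% against 35.9 to 37.1% in the other CON libraries, which left it above every HG share.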

How the results depend on the processing

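Under the alternatives 13 counts moved by over 1.5 times, 9 calls of members were gained, 9 were lost and 2 log2 fold changes of members turned in direction. The other 339 values kept their call, stayed within 1.5 times for a count, or stayed within the spread between libraries for a ratio, where the HG minus CON difference of Igf1 to the summed binding proteins, -0.000682, turned to 0.000302 without HG 1. Median-of-ratios factors gave 3 members higher and 2 lower, 19 pathway genes higher and 28 lower, and 2271 genes higher and 2551 lower in all. Quantile normalization gave 3 and 2 members, 25 and 23 pathway genes, and 2615 and 2317 genes in all. The log2 fold change of Irs1, 0.07 as reported, turned to -0.0237 and -0.0207 under these scalings. The median of all genes was then 0.01 and 0.02 on the log2 scale in place of 0.09. Asking for a fold above 2 as well left 1 member higher and 0 lower, 1 pathway gene higher and 0 lower, and 126 and 156 genes in all. With each library left out, 4 to 6 members were higher and 1 lower, with 31 to 37 and 16 to 20 pathway genes and 3539 to 4004 and 1503 to 1641 genes in all. Deviations of same-numbered CON and HG libraries from their group means correlated at 0.108, -0.0749, -0.126, -0.0276 and 0.0144. The highest correlation of each CON library with a differently numbered HG library was 0.118, 0.213, 0.101, 0.143 and 0.0739. Whether a batch followed the replicate numbers was not tested. With the replicate block 5 members were higher and 1 lower, and 3566 and 1530 genes in all, where Igf1r was not called (adjusted p = 0.0614) and Igfbp2 was (adjusted p = 0.0113). Depth limited the scarcest genes most, such as Igfbp2 at 30 to 98 reads a library.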

Other observations

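HG 4 was the lowest of the HG libraries for 9 of the 10 members, with Igf1 the exception. Over all genes tested HG 4 was the lowest HG library for 24.8%. Under median-of-ratios factors it was the lowest for 6 of the 10 members, beside 18.6% of the genes tested. HG 2 was the highest HG library for 5 of the 10 members, beside 19.6% of the genes tested. In CON, CON 1 and CON 4 were each the lowest for 4 members, beside 20.7% and 19% of the genes tested. This pattern was noticed after the values were seen and was given no test.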
